A study of Danio rerio with 6 samples.

Results

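Of the 32253 features measured in zebrafish gonads, 10 were high and within 4-fold in ovary and oocyte and under 1 FPKM in testis. FPKM counts sequenced fragments relative to transcript length and to the size of the library. The 10 were selected on these same values: at least 50 FPKM in all 4 female libraries, the highest of the 4 under 4 times the lowest, and under 1 FPKM in both testis libraries. Rows above 10000 FPKM and 5 named IDs were left out, of which 1 (bmp15) passed the remaining limits, at 57.4 and 52.7 FPKM in ovary, 67.0 and 64.5 in oocyte and 0.588 and 0.66 in testis. The levels of the 10 in the 3 tissues are therefore a description and carry no test.

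The groups were whole ovaries dissected from females, mature oocytes squeezed from females, and whole testes dissected from males, with 2 libraries of each. All fish were adult wild-type zebrafish of the TLAB strain with no treatment. Nothing in the labels ties the 2 libraries of a tissue to separate fish, so the p-values measure only the spread between these samples, which may be technical. Sex and organ go together in the testis comparisons and cannot be told apart, and in bulk tissue fewer cells of a type and less RNA per cell cannot be told apart.

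A fish oocyte stores mRNA and protein during its growth, and the embryo lives on these stores until its own genome is switched on. The stored mRNAs are held and translated through proteins that bind the poly(A) tail or the untranslated regions, and germ cell fate is passed on by a cytoplasm called germ plasm, which the Bucky ball protein organises in zebrafish. A whole ovary holds oocytes at all stages together with follicle cells, whereas a squeezed mature egg is a single kind of cell.

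Of the 10, 8 have a symbol in the names table, which writes some symbols in capitals, and 2 have only an Ensembl ID. By their symbols, 2 are RNA-binding proteins (PABPC1L and larp6b), 1 is related by name to the germ plasm organiser Bucky ball (buc2l), 1 carries proteins into the nucleus (kpna7) and 3 are metabolic genes (ca15b, HSD17B12 and ppp1r3c2b). The symbol zgc:113424 gives no function. The label under which they were grouped calls them absent from testis. In these libraries 8 of the 10 had low values above 0 in both testis libraries and 2 were listed at exactly 0, so "under 1 FPKM" is used here.

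**Figure D1:**
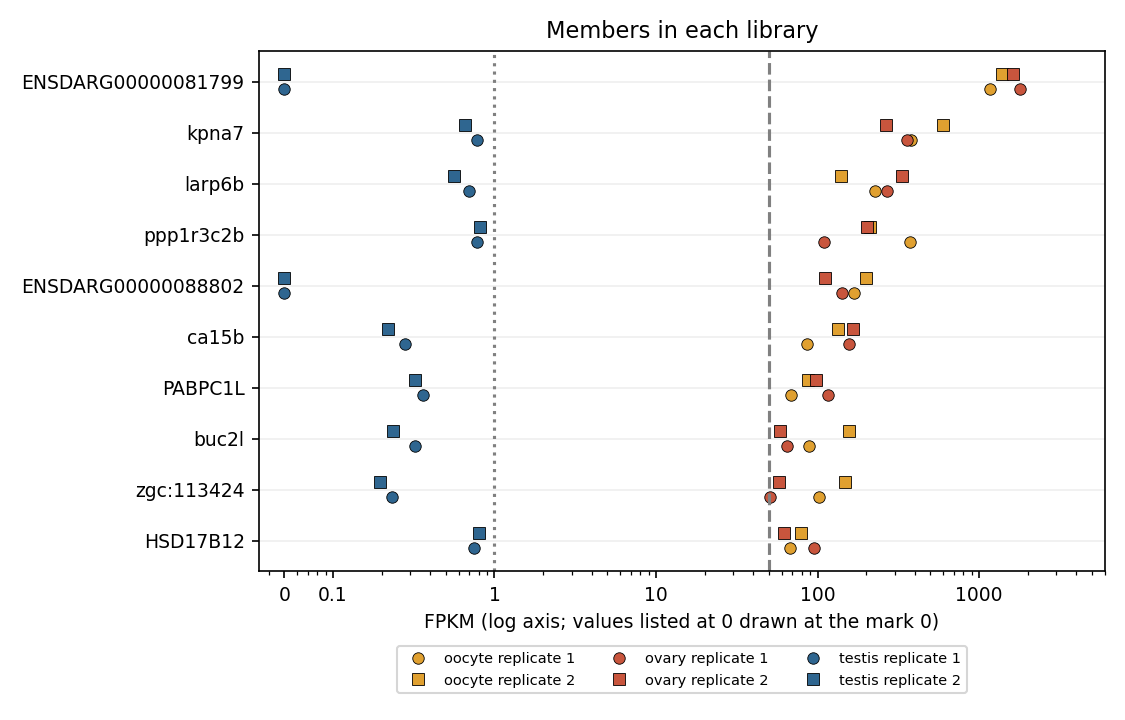
FPKM of the 10 members (log axis) in each of the 6 libraries, with circles for replicate 1 and squares for replicate 2; the dotted line is the testis limit of 1 FPKM and the dashed line the female minimum of 50 FPKM. The 2 features without a symbol are listed at 0 in both testis libraries, and the other 8 lie between 0.196 and 0.81 FPKM there.

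PABPC1L (ENSDARG00000002597) is the embryonic form of the cytoplasmic poly(A)-binding protein, which in frog and mouse oocytes binds the tails of stored mRNAs. It was at 116 and 97.5 FPKM in ovary, 68.7 and 86.9 in oocyte, and 0.36 and 0.322 in testis. Both oocyte libraries lay below both ovary libraries. The ovary mean was 313 times and the oocyte mean 228 times the testis mean on the deposited scale. Such ratios depend on how the libraries are scaled: under median of ratios they were 139 and 94.4 for PABPC1L, and the median ovary to testis ratio over the 8 features above 0 in testis was 283 as deposited, 125 under median of ratios, 370.2 under quantile normalization and 173 under trimmed-sum scaling.

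The other RNA-binding member, larp6b (ENSDARG00000003968), is a La-related protein, a family that binds mRNA. Its levels were 268 and 333 FPKM in ovary, 228 and 140 in oocyte, and 0.693 and 0.561 in testis. Again both oocyte libraries were the lower ones, and oocyte replicate 2 was the lowest female library. The fitted oocyte minus ovary difference on the log2(FPKM + 1) scale was -0.74 (SE 0.274). It was -1.09 without oocyte replicate 1 and -0.39 without oocyte replicate 2.

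The gene buc2l (ENSDARG00000096628) is named for its likeness to buc, and the RefSeq table lists it as a long noncoding RNA. It stood at 65.1 and 58.5 FPKM in ovary, 88.8 and 157 in oocyte, and 0.323 and 0.237 in testis. Both oocyte libraries were above both ovary libraries, and the oocyte replicates differed by a factor of 1.76, the widest replicate gap in oocyte among the 10.

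The gene kpna7 (ENSDARG00000027169) codes for an importin alpha, an adaptor that brings proteins with a nuclear localisation signal to the nuclear pore, and in mouse and cattle it is the form of the oocyte and early embryo. Its FPKM was 358 and 264 in ovary, 379 and 599 in oocyte, and 0.778 and 0.654 in testis. It was the most abundant of the 8 features with a symbol, ranking 264 and 372 among all features in ovary, 245 and 117 in oocyte, and 11941 and 11935 in testis. The oocyte mean was 683 times the testis mean as deposited.

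Among the metabolic members, ca15b (ENSDARG00000040510) belongs to the carbonic anhydrases, which convert carbon dioxide to bicarbonate, and it is used as a marker of zebrafish primordial germ cells. It was at 157 and 166 FPKM in ovary, 86.4 and 134 in oocyte, and 0.279 and 0.218 in testis. The ovary replicates were nearly level (SD 0.0598 on the log2 scale) and both were above the oocyte replicates. Its ovary mean was 649 times its testis mean as deposited, the widest such ratio of the 8 features above 0 there and under each of the 3 other scalings.

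HSD17B12 (ENSDARG00000015709) is the ketoacyl-CoA reductase of fatty acid elongation. It was the only member whose ovary and oocyte values overlapped, at 95.2 and 62.2 FPKM in ovary and 67.8 and 78.7 in oocyte, with 0.743 and 0.808 in testis. It also had the narrowest gap to testis as deposited: its lowest female library was 77 times its highest testis library, where the other 7 features above 0 had ratios of up to 339.

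The gene ppp1r3c2b (ENSDARG00000015657) codes for a subunit that directs protein phosphatase 1 to glycogen. Its values were 110 and 201 FPKM in ovary, 371 and 213 in oocyte, and 0.783 and 0.81 in testis. It varied most among the female libraries, with the highest at 3.37 times the lowest, and its SD between ovary replicates (0.612 on the log2 scale) was the largest of the 10. Both oocyte libraries were above both ovary libraries, oocyte replicate 2 only just.

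The uncharacterised zgc:113424 (ENSDARG00000035680) was at 50.6 and 57.4 FPKM in ovary, 102 and 149 in oocyte, and 0.232 and 0.196 in testis. It lay nearest to the female minimum and had an oocyte minus ovary difference of 1.18 on the log2 scale (SE 0.225), with the oocyte mean at 2.33 times the ovary mean. This was the largest of the 10 on the deposited scale. Under quantile normalization it was 0.78, below kpna7 at 1.10, and without oocyte replicate 2 it was 0.91, below ppp1r3c2b at 1.31, and it was called in neither.

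The remaining 2 features have no symbol. ENSDARG00000081799 was the most abundant of the 10, at 1781 and 1628 FPKM in ovary and 1176 and 1382 in oocyte, and ENSDARG00000088802 was at 142 and 112 in ovary and 169 and 198 in oocyte. Both were listed at 0 in both testis libraries, and 0 is not read here as absence. Of the 706 features at 50 FPKM or more in all female libraries, 7 were listed at 0 in both testis libraries, and these included mt-atp8, MT-ATP6 and MT-CO3, which every respiring cell uses. The other 10 of the 13 mitochondrial features were between 129 and 4930 FPKM in testis. RPLP0, a ribosomal protein gene, was listed at 0 in testis replicate 1 and at 5051 FPKM in testis replicate 2. Why these features are listed at 0 was not tested, and some of the results below are given with and without the 2 members concerned.

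Across the members the replicates agreed less well in oocyte than in ovary. The median SD between replicates on the log2(FPKM + 1) scale was 0.409 in oocyte and 0.198 in ovary, beside 0.188 and 0.136 for the 13717 features tested. Most tested features lay far below the members, and this scale compresses the spread of low values. The rule also bounds the members' range in the female libraries, so the 2 sets are not directly comparable. Oocyte replicate 2 was higher than replicate 1 for 8 of the 10 and lower for larp6b and ppp1r3c2b, while ovary replicate 2 was higher for 4. In testis the SD was 0.0336 over all 10, among them the 2 features listed at 0, whose SD is 0. This scale also compresses values so near 0. Testis replicate 2 was lower than replicate 1 for 6 of the 8 features above 0. Median levels of all tested features in replicates 1 and 2 were 4.79 and 5.24 FPKM in oocyte. They were 5.32 and 5.27 in ovary and 2.64 and 2.46 in testis. Shares of all tested features with each replicate order are not given here, so nothing is read from these counts of members.

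Between oocyte and ovary the members went both ways. Both oocyte libraries were above both ovary libraries in 5 of the 10 (kpna7, ppp1r3c2b, buc2l, zgc:113424 and ENSDARG00000088802), where 42.8% of all tested features had that order, and below them in 4 (PABPC1L, larp6b, ca15b and ENSDARG00000081799), where 38.9% did. The median oocyte minus ovary difference was 0.23 over the members and 0.28 without the 2 features at 0, beside 0.02 over all tested features. With limma, at an adjusted p-value under 0.05 and a log2 difference of at least 1, the count called was 1 of 10, zgc:113424, against 49% of all tested features. The rule allowed less than a 4-fold range among the female libraries, so nothing is read from this low count.

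In testis all 10 were called lower than in ovary and lower than in oocyte, beside 43.8% and 45.6% of all tested features, which is what the rule selects. For the 8 features above 0 the testis minus ovary difference ranged from -7.53 (larp6b) to -5.46 (HSD17B12) on the log2(FPKM + 1) scale, with a median of -6.35, and the testis minus oocyte difference ranged from -8.12 (kpna7) to -5.38 (HSD17B12), with a median of -6.61. Tested features as a whole had a negative median too, of -0.82 against ovary and -0.79 against oocyte. Scaling the libraries by median of ratios removed this shift and changed the split of all calls from 27.3% to 54.1% higher in testis against ovary and from 32.8% to 53.4% against oocyte. All 10 members were called lower in both comparisons there too, which the limits of the rule lead to, so nothing is read from it.

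Few features that were high and within 4-fold in ovary and oocyte were under 1 FPKM in testis on the deposited scale. The share of all features under 1 FPKM in testis is not given here, so no relation is read from this. Of 692 features at 50 FPKM or more in all 4 female libraries, 480 had a range under 4-fold there. Leaving out the named IDs gave 478, whose highest testis value had a median of 32.6 FPKM and a 5th percentile of 2.15. Under 1 FPKM were the 10 members (2.09%), another 89 lay from 1 to 10 FPKM and 379 at 10 or more.

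**Figure D2:**
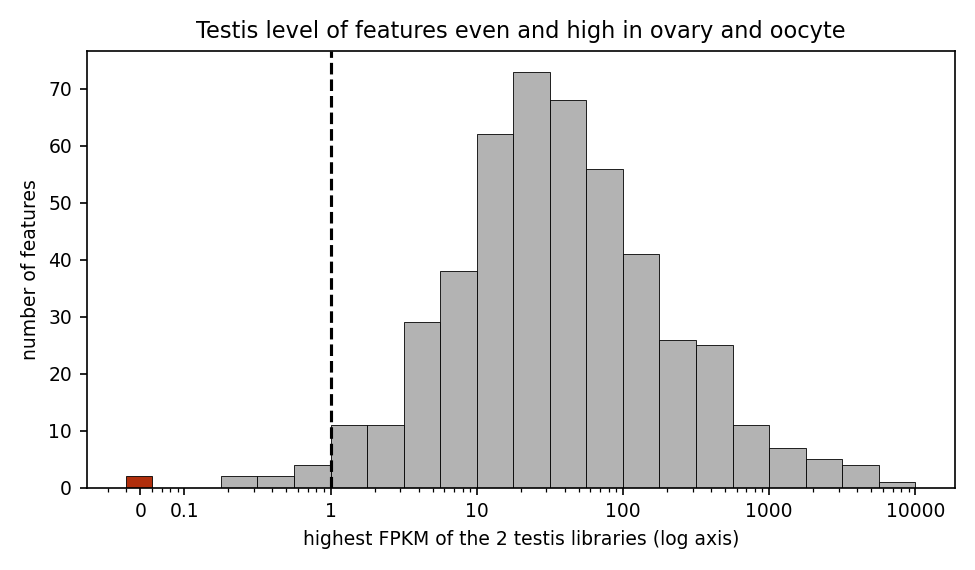
Number of features by the highest FPKM of the 2 testis libraries (log axis), for the 478 features at 50 FPKM or more and within 4-fold in the ovary and oocyte libraries; the red bar holds the 2 features listed at 0 and the dashed line is the limit of 1 FPKM. The 10 members form the low end of a distribution whose median is 32.6 FPKM.

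Just inside the testis limit were ppp1r3c2b and HSD17B12, both with a highest testis value of 0.81, kpna7 at 0.778, larp6b at 0.693 and PABPC1L at 0.36. Just outside were SLC16A3 at 1.01, a transporter of lactate, gsto2 at 1.02, LSM2 at 1.03, LIPG at 1.19 and MCM6, a subunit of the replicative helicase, at 1.21. At the female minimum, zgc:113424 was nearest inside at 50.6 FPKM, followed by buc2l at 58.5, HSD17B12 at 62.2, PABPC1L at 68.7 and ca15b at 86.4. The nearest features outside were si:ch211-286b5.4 at 44.1, lmo7b at 38.8, si:dkey-43p13.5 at 32.5, DEPDC7 at 31.6 and F2RL1 at 29.3.

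The ratio of the highest to the lowest female library was 3.37 for ppp1r3c2b, 2.94 for zgc:113424, 2.68 for buc2l, 2.38 for larp6b and 2.27 for kpna7. This limit alone kept out 9 features. The nearest was BTG4 at 4.21, an adaptor of mRNA deadenylation in the egg, with 81.8 and 80.2 FPKM in ovary, 324 and 338 in oocyte and 0.604 and 0.615 in testis. Next came zgc:56231 at 4.47, MT-CO3 at 5.91, the cyclin gene ccnp at 7.17 and RPSA2 at 7.37, of which MT-CO3 and RPSA2 were among the features listed at 0 in testis.

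**Figure D3:**
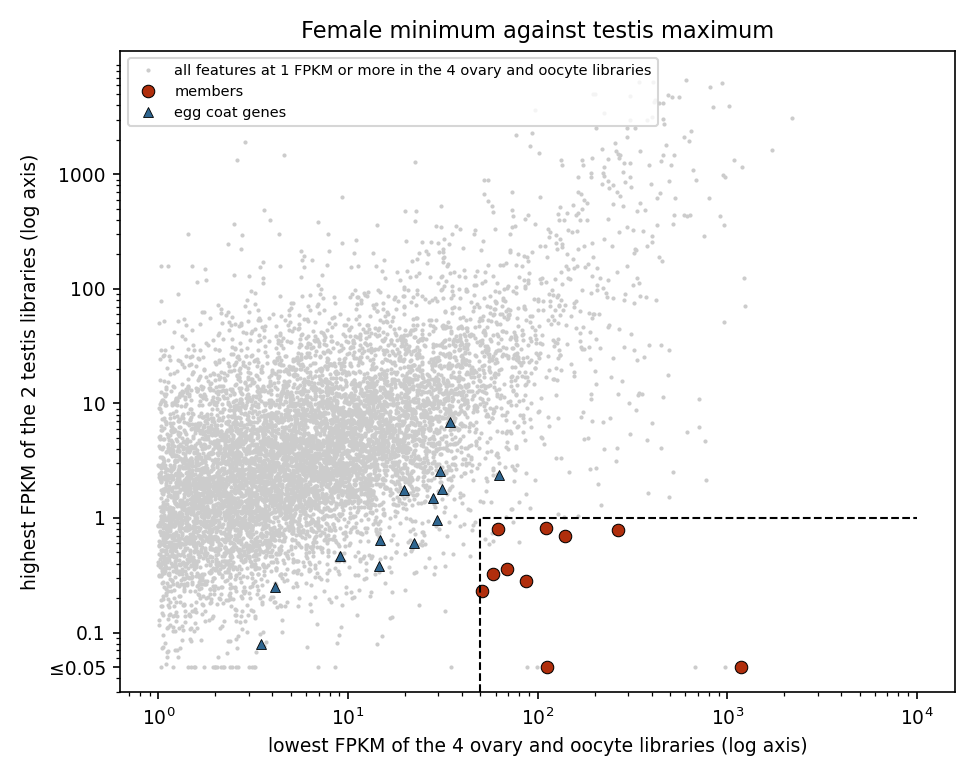
Highest testis FPKM against the lowest FPKM of the 4 ovary and oocyte libraries (both log axes; values of 0.05 or less are drawn at the lowest mark) for features at 1 FPKM or more in all 4, with the 10 members in red, egg coat genes as blue triangles and the limits of 50 and 1 FPKM dashed. Grey points inside the dashed region miss the 4-fold limit or have a left-out ID, and of the egg coat genes zp3a.2 passes 50 FPKM but lies above 1 FPKM in testis.

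The rule was also applied to the libraries of a single replicate number, and the values were then read in the libraries not used. Replicate 1 libraries alone gave 18 features, of which 15 were under 1 FPKM in testis replicate 2, 16 were at 50 FPKM or more in ovary and oocyte replicate 2, and 10 met the whole rule there. Replicate 2 libraries alone gave 22, of which 16 were under the testis limit and 18 at the female minimum in replicate 1. The 10 that met the whole rule in both are the members by construction. They are also part of each count for a single limit, so none of these counts is support for them. The features that failed in testis did so by little in most cases (MYLIP was at 0.95 and 1.18 FPKM, LIPG at 1.19 and 0.67), with RPLP0 as the extreme.

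Relatives that share the stem of a member's symbol were found for 7 members. There were 17 of them, of which 12 passed the filter (1 FPKM or more in at least 2 libraries) and were tested, with p-values adjusted over all 13717 features. The relatives were picked by symbol, but from members chosen as low in testis. Of the 12, 6 were called lower in testis than in both ovary and oocyte, beside 29.4% of all tested features. KPNA2, KPNA4 and KPNA6 among them belong to a single family, so the count is a description. Under median-of-ratios scaling LARP6 and hsd17b12b lost that call, and 13.5% of all tested features had it. LARP6 also lost it under quantile normalization and trimmed-sum scaling. How reads shared between related genes were assigned is not given in the sources used here.

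The poly(A)-binding family split by tissue. The gene pabpc1a, the general cytoplasmic form, was at 414 and 402 FPKM in ovary, 819 and 954 in oocyte and 250 and 287 in testis. It was not called between testis and ovary (log2 difference -0.60, SE 0.238, limma adjusted p = 0.0573), and its decrease in testis against oocyte was not called under median-of-ratios scaling. The copy pabpc1b had the opposite pattern to PABPC1L, with 3.45 and 4.71 FPKM in ovary, 5.96 and 4.49 in oocyte and 130 and 154 in testis. It was higher in testis than in ovary by 4.82 on the log2 scale (SE 0.223, limma adjusted p = 1.87e-05) and higher than in oocyte by 4.53, and it was called in both under every scaling tried. PABPC4 was under 1 FPKM in every library.

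The relative of larp6b, listed as LARP6 (ENSDARG00000005355), was abundant in ovary and far lower in the egg. It stood at 718 and 1095 FPKM in ovary, 35.5 and 24.7 in oocyte and 9.58 and 12.9 in testis. Oocyte was lower than ovary by -4.86 on the log2 scale (SE 0.301, limma adjusted p = 0.000152), where larp6b differed by -0.74. Testis was lower than ovary by -6.20 (limma adjusted p = 2.17e-05). Testis and oocyte differed by -1.34 on the deposited scale, a call lost under each of the 3 scalings, with the sign reversed under quantile normalization (0.10).

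The importin alpha genes covered the whole range. KPNA2 was at levels like those of kpna7 in the female libraries, at 310 and 352 FPKM in ovary and 472 and 497 in oocyte, but stood at 39.0 and 40.6 in testis, where kpna7 was under 1. Testis was lower for KPNA2 by -3.02 against ovary (SE 0.196, limma adjusted p = 4.71e-05) and by -3.57 against oocyte. KPNA4 and KPNA6 were also called lower in testis than in both, at lower levels: KPNA6 was at 8.37 and 8.45 FPKM in ovary and 0.755 and 0.692 in testis. KPNA1 was the opposite, with 9.17 and 9.31 FPKM in testis against 2.18 and 1.91 in ovary and 0.636 and 0.708 in oocyte, called higher in testis than in both under every scaling. KPNA3 was between 0.551 and 1.85 FPKM in all libraries and was called higher in testis than in both under median-of-ratios scaling alone. KPNA5 was called lower in oocyte than in ovary (-2.11, limma adjusted p = 0.000209).

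The Bucky ball gene itself, buc, was at 309 and 182 FPKM in ovary, 112 and 87.3 in oocyte and 1.61 and 1.26 in testis, so that the testis limit alone kept it out of the members. It was called lower in testis than in ovary (-6.61, SE 0.295, limma adjusted p = 1.67e-05) and than in oocyte (-5.36). It was also called lower in oocyte than in ovary (-1.26, limma adjusted p = 0.0102), where both oocyte libraries of buc2l lay above those of ovary.

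Among the genes matched by symbol stem, carbonic anhydrase 15 and the PPP1R3C-type glycogen subunits had a single abundant copy in the female libraries. The relatives ca15a and ca15c were under 0.1 FPKM in every library. Of the relatives of ppp1r3c2b, PPP1R3C (ENSDARG00000071005) was at 0.536 and 1.32 FPKM in ovary and 7.41 and 5.07 in oocyte and was called higher in oocyte (1.92, limma adjusted p = 0.00109), and the remaining relatives stayed under 1 FPKM. The relative of HSD17B12, hsd17b12b, was at 9.40 and 5.08 FPKM in ovary, 5.53 and 13.5 in oocyte and 1.42 and 1.003 in testis. It was called lower in testis against both, with the call against ovary (-1.85, limma adjusted p = 0.0086) lost under median-of-ratios scaling.

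**Figure D4:**
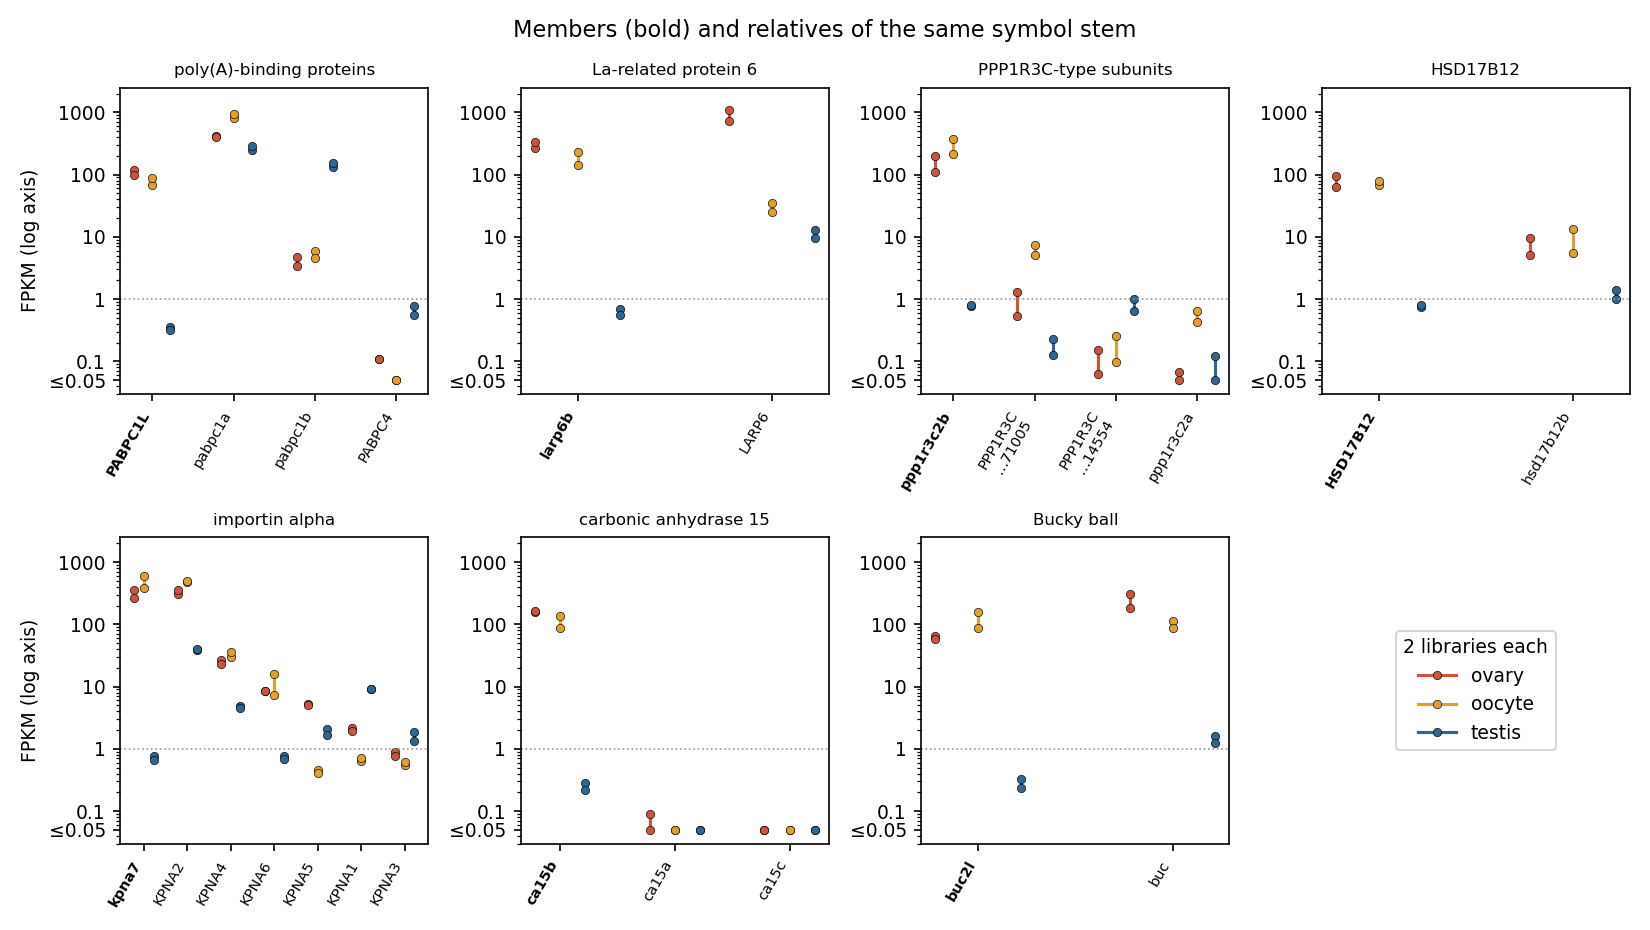
FPKM (log axis) of 7 members, in bold, and of their 17 relatives by symbol stem, with the 2 libraries of each tissue joined by a line; values of 0.05 or less are drawn at the lowest mark. The members lie under 1 FPKM in testis, while pabpc1b is highest in testis and KPNA2 stands near 40 FPKM there.

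The genes beside the members on the chromosome were looked at next. In the RefSeq gene order of GRCz12tu, a newer assembly than the GRCz10 build in the submitters' processing notes, 7 members could be placed, and none had another member among the 2 protein-coding genes on each side. Values could be matched by symbol for 17 of these 28 neighbours, of which 12 were tested and 5 were under 1 FPKM in all 6 libraries. The neighbours of PABPC1L, ubap2b and chmp4bb, were at 57.5 and 79.3 and at 6.28 and 4.33 FPKM in testis, and the nearest matched neighbour of ppp1r3c2b, GINS4, was at 7.53 and 7.26 there. Those called lower in testis than in both female tissues were 3 of 12, beside 29.4% of all features: zgc:92313 near ca15b, and KLHL11 and KBTBD2 on either side of buc2l. For KBTBD2 the call against ovary was lost under median-of-ratios scaling. The ca15b neighbour zgc:92313 was at 29.8 and 28.0 FPKM in ovary, 185 and 249 in oocyte and 2.91 and 3.40 in testis.

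Other genes of the egg programme were read from lists drawn up from textbook knowledge, with earlier results of these data known. The list counts are therefore a description, and a member on a list is low in testis by the rule. Of 22 tested genes of maternal mRNA storage and translation, 14 were called lower in testis than in both ovary and oocyte, with a median testis minus ovary difference of -3.53 beside -0.82 for all features; under median-of-ratios scaling the count was 12, beside 13.5% of all features. PABPC1L is the only member on that list. ZAR1L, a relative of the maternal RNA-binding factor Zar1, resembled the members in the female libraries (446 and 527 FPKM in ovary, 602 and 732 in oocyte) but was at 3.66 and 4.12 in testis. The gene cth1, a zinc finger protein of the egg, was at 2.17 and 2.52 FPKM in testis. It was less level in the female libraries, at 521 and 688 FPKM in ovary and 2358 and 1777 in oocyte. It was called higher in oocyte than in ovary (1.77, limma adjusted p = 0.00127). patl2, a translational repressor of oocytes, was at 0.54 and 0.585 FPKM in testis and missed the female minimum with 32.8 and 24.7 in oocyte. In the same list cpeb1a was called higher in testis than in both, and the number of such genes was 4 under median-of-ratios scaling and 3 under quantile normalization.

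Of 19 tested genes of meiotic maturation and early cleavage, 14 were called lower in testis than in both and 1 (CCNE2) higher than in both. The median testis minus ovary difference of the 19 was -3.11. Under median-of-ratios scaling 13 were called lower than in both and 2 higher. None of the 19 is a member. Closest was birc5b, a subunit of the chromosomal passenger complex. It was at 381 and 455 FPKM in ovary, 819 and 764 in oocyte and 1.66 and 1.24 in testis. For oocyte transcription and chromatin 9 of 9 were called lower in testis than in both, falling to 5 under median-of-ratios scaling. Of all tested features 29.4% were called lower in both on the deposited scale and 13.5% under median of ratios, which holds as the background for each list here. The linker histone h1m was the most abundant of these, at 771 and 836 FPKM in ovary and 1495 and 1852 in oocyte against 1.88 and 2.15 in testis. Of 13 tested maternal signalling genes 11 were called lower in testis than in both, and 8 under median-of-ratios scaling. The fertilization list went both ways, with 3 of 7 lower (ca15b among them, with cd9b and mid1ip1l) and 3 of 7 higher in testis than in both. The higher ones were tmem81, dcst1 and DCST2, which are known from sperm.

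The genes of the egg coat, which the growing oocyte makes and lays down around itself, are the best known female germline transcripts, and none of the 21 measured is a member. Most were high in ovary and low in the mature egg. Of the 21, 16 were called lower in oocyte than in ovary, beside 3043 of all 13717 tested features. The median oocyte minus ovary difference of the 21 was -4.28 on the log2 scale, beside 0.02 for all features. The 5 called higher in oocyte (zp2.1, zp2.2, zp2.3, zp2.5 and zp2.6) were listed at 0 in both ovary libraries. In testis 9 of the 21 were under 1 FPKM in both libraries. zp3a.2, for example, was at 1876 and 2876 FPKM in ovary, 81.3 and 62.7 in oocyte and 2.37 and 1.87 in testis.

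The tissues were checked against markers. Of 14 tested male germ cell markers, 12 were called higher in testis than in both female tissues. The exceptions were spo11 and tsga10, the latter at 124 and 154 FPKM in ovary and 65.4 and 57.0 in testis. Of 8 tested Sertoli and Leydig markers, 7 were called higher in testis than in both. The exception, CYP17A1, was called lower in testis than in oocyte (-1.27), a call lost under every other scaling. Among the 7, insl3, a hormone of Leydig cells, was at 976 and 1899 FPKM in testis and under 5 elsewhere. The share of all features called higher in both is not given here for any list. The 7 follicle cell markers matched summed to 23.5 and 20.8 FPKM in ovary, 79.1 and 145.4 in oocyte and 30.1 and 29.0 in testis. That list had 10 names, and CYP11A1 was matched by more than 1 feature. Its names foxl2a, foxl2b, cyp19a1a and inhbaa were not matched by symbol, so the sums leave them out. In ovary this sum was mostly CYP11A1 (ENSDARG00000002347) at 21.9 and 18.2 FPKM, a gene that was higher in the mature egg at 78.8 and 145.3. In testis the sum was mostly STAR, at 21.94 and 21.97 FPKM, a gene that is also on the Sertoli and Leydig list. Of the 4 follicle cell markers tested, 3 were called higher in testis than in both female tissues. The remaining 1, CYP11A1 (ENSDARG00000002347), was called lower than in both. FSHR and lhcgr were under 0.1 FPKM in both ovary libraries. The egg coat genes summed to 37.0 and 35.2 FPKM in testis against 12304 and 16735 in ovary, with none of the 21 at 0 in testis. This level was uneven, with the highest testis values for zp3d.2 (7.49 and 7.16 FPKM), zp3b (6.87 and 6.89) and zp2l2 (3.14 and 5.51). Both zp3d.2 and zp2l2 were called higher in testis than in oocyte. The zp2 genes listed at 0 in both ovary libraries were above 0 in testis. The testis values of the members, 0.196 to 0.81 FPKM, stood beside this low level of egg coat RNA, and its part in them was not tested.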

How the data were processed

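RNA from 6 libraries, 2 each of ovary, mature oocyte and testis, was sequenced as strand-specific paired reads of 76 bases after TRIzol extraction and TruSeq library construction, per the labels' protocols. The authors deposited FPKM values in a table with a column per library. TopHat, Bowtie2, Cuffnorm and the GRCz10 build are named in the submitters' processing notes. The annotation and read numbers are not given in the sources used here, so no counting error is stated. Replicate ratios of features under 0.02 FPKM peaked where the depth of replicate 2 was 1.19 (oocyte), 0.742 (ovary) and 0.785 (testis) times that of replicate 1. Symbols were matched by Ensembl ID for 26411 of 32253 rows. No sequences were at hand for the members, so none are printed.

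Members were found by the stated limits. Values were taken to log2(FPKM + 1), features at 1 FPKM or more in at least 2 libraries (13717) were kept, and all 6 libraries were fitted with limma 3.58.1 in R 4.3.3 with a mean per tissue, eBayes with trend=TRUE and Benjamini-Hochberg adjustment, two-sided. A call needs an adjusted p under 0.05 and a log2 difference of at least 1. The fit was tested on simulated data. Differences on this scale understate the change of low features. Named were all members, fixed-list genes and the 5 features on each side of each limit. Symbol-stem relatives, chromosome neighbours and other examples were added later. Members and lists were chosen with earlier results of these data known.

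Pairing by replicate number was examined through correlations of replicate differences between tissues. Alternatives covered pseudocounts of 0.1 and 0.01, no filter or one of 5 FPKM, median-of-ratios, quantile and trimmed-sum scaling (the sum over features never above 10000 FPKM), trend=FALSE, the replicate block, only the tissues compared, an adjusted p under 0.01, other limits and leaving out each library.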

Additional observations from a re-analysis of the deposited data

How the results depend on the processing

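The number of members followed the limits and the scaling. It was 6 at a testis limit of 0.5 FPKM, 22 at a testis limit of 2 and 478 with no testis limit. A female minimum of 25 FPKM gave 18 and of 100 gave 5, and a female ratio under 2 gave 5 and no ratio limit 19. With the same limits on rescaled values it was 4 (median of ratios), 5 (quantile) and 4 (trimmed sum), all among the 10, and ca15b and the 2 features at 0 in testis met the rule under each of the 3. Values of 0 in testis stayed at 0 under each scaling, so those 2 features could not fail the testis limit. Over these scalings no member exceeded 1.503 FPKM in testis or fell under 40.8 in a female library. Replicate 1 or 2 libraries alone gave 18 and 22. Leaving out each library in turn gave 10 to 16 members, with 16 without testis replicate 1. These always included the 10 by construction, because leaving a library out can only relax the limits, so nothing is read from it.

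All 10 members were called lower in testis under each alternative, which the limits of the rule lead to, so nothing is read from it. The 1 member called between oocyte and ovary became 0 under quantile normalization, 3 under trimmed-sum scaling, and 1 to 3 when a library was left out (3 without oocyte replicate 1, 2 without ovary replicate 2). Without oocyte replicate 2 the 1 member called was ppp1r3c2b in place of zgc:113424. With a lone library its tissue is assumed to vary like the others. The median member level in oocyte (154.6 FPKM) was 115, 105 and 138 under median-of-ratios, quantile and trimmed-sum scaling, 124 without the 2 features at 0, and 135 to 153 with a library left out. In ovary (141 FPKM) it was 113, 110.1, 117, 131 and 129 to 139, and in testis (0.31 FPKM) 0.558, 0.188, 0.427, 0.484 and 0.279 to 0.341. For these the cause was not tested.

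The correlation of replicate differences was -0.346 (oocyte with ovary), -0.214 (oocyte with testis) and 0.243 (ovary with testis). Each tissue gives a single replicate difference, so these values cannot show whether equal replicate numbers pair the libraries. The replicate block gave 6679 calls for oocyte versus ovary (6716 without it), 8217 for testis versus ovary (8262) and 9273 for testis versus oocyte (9311), and the same counts of members called (1, 10 and 10). A block with the oocyte numbers exchanged, chosen after seeing the data as was leaving out the features at 0, gave 6819, 8365 and 9386. In 510 combinations of a member's difference and an alternative, 98 moved by more than the SD between replicates. No testis difference changed sign, which the limits of the rule lead to. Of 170 oocyte minus ovary differences 4 changed sign, for HSD17B12 and ENSDARG00000081799. Absolute depth is unknown, which limits what the testis values near 0 can show.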
